A study of Danio rerio with 20 samples.

Results

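The genes of cholesterol synthesis and sterol regulation were examined in the livers of adult male zebrafish in which hepatocytes carry activated β-catenin. The set was a list of 30 symbols that covers the enzymes of the pathway, the proteins that sense sterols, and proteins that take up, move or esterify cholesterol. Of these, 29 were found by symbol in the gene table, ignoring case and allowing a capital symbol without its paralog letter, and cyp51 was found under its other symbol CYP51A1. SQLE is carried by 2 identifiers, so the set held 31 of the 32520 genes counted. The table does not say which of these 2 is the paralog a or b, so they are named by identifier.

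Liver RNA of 20 zebrafish was sequenced in 2 experiments, with 1 library per fish. In the CreLox experiment, at 11 months post fertilization (mpf), 4 zebrafish with hepatocellular carcinoma (HCC) and 2 without HCC carried both Tg(fabp10a-CreERT2) and Tg(fabp10a-flox-beta-catenin) and had been given 10 μM 4-hydroxytamoxifen (TAM) as larvae, from 3 to 6 days post fertilization. Their 4 Cre controls carried the CreERT2 driver alone and had been given 0.1% ethanol over the same days, so the effects of the flox transgene and of TAM cannot be told apart. By the methods of the study, the TAM solution also held 0.1% ethanol. In the HepABC experiment, at 6 mpf, 5 zebrafish with HCC carried activated β-catenin directly under the fabp10a promoter, with no treatment listed, and the 5 NonTg controls were their non-transgenic siblings without HCC. The fabp10a promoter is active in hepatocytes, the transgene encodes Xenopus β-catenin, the flox line came from 1 founder, and diagnosis was made on the other part of each liver. The methods of the study count 1 fish fewer in the group of CreLox zebrafish with HCC than the labels, and all 4 labelled fish were used.

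Cholesterol is built from acetyl-CoA through mevalonate, isoprenoids, squalene and lanosterol. In mammals the pathway is governed by SREBP transcription factors that are held in the endoplasmic reticulum with their escort SCAP. When sterols are low, SCAP carries SREBP to the Golgi, where it is cut and released to switch on the enzymes and the LDL receptor, and when sterols are high INSIG proteins keep SCAP in place. The liver is the main site at which cholesterol is made, taken up as LDL, esterified, secreted on lipoproteins and turned into bile acids.

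Library totals ranged from 20903187 to 37994885 counts. Values for single fish are CPM, the count a gene would have in a library of 1000000 counts. They are scaled to the TMM library sizes of the fish's own experiment. Fold changes are log2 values from edgeR's quasi-likelihood test, with Benjamini-Hochberg adjustment over all genes tested and a call at an adjusted p under 0.05. The test returns no standard error (SE). The SE given here is the absolute log2 change divided by the square root of the test's F statistic. The HepABC livers with HCC stood apart from their controls in cell markers. All 12 tested hepatocyte markers fell, with a summed level of 34640 to 72040 CPM against 237400 to 295800 CPM in the NonTg controls, and 13 of 14 proliferation genes rose, from a sum of 12.0 to 44.2 CPM to one of 92.3 to 312 CPM. Of the other marker lists, 5 of 5 erythrocyte, 7 of 9 endothelial and 3 of 8 stellate and fibroblast markers fell, 3 of 7 biliary markers rose, and of 6 lymphocyte markers 1 rose and 2 fell, where 33.7% of all genes were called. Of 5 vitellogenin genes, 4 rose, with a sum of 52.6 to 282 CPM against 5.09 to 43.0 CPM. Of a list of Wnt feedback genes and other targets of β-catenin, 4 of 7 tested rose in HepABC HCC. Among them were AXIN2, by 2.07 ± 0.51, and WIF1, by 6.15 ± 0.73 (log2, SE). The summed level of the list was 342 ± 177 CPM against 350 ± 162 CPM in the controls (SD, n = 5 each). This sum covers 11 identifiers, tested or not, and follows those of highest level more than the called genes. In CreLox zebrafish WIF1 was the 1 called gene of the 9 tested from this list. It rose by 2.95 ± 0.46 with HCC, where 4.20% of all genes were called, and by 3.77 ± 0.51 without HCC, where 0.315% were. All 11 exocrine pancreas markers fell, from 20.5 to 8675 CPM in the controls to 16.1 to 31.9 CPM, and the highest sum was that of control fish 317C1. In bulk liver, fewer cells of a type and less RNA per cell cannot be told apart, and the part of these shifts in the results on sterol genes was not tested.

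In HepABC zebrafish with HCC, most of the cholesterol synthesis pathway was higher than in NonTg siblings. Of the 30 members tested, 14 rose and 3 fell, or 56.7% called, where 33.7% of all 15864 genes tested were called, 17.4% up and 16.2% down. The median change of the members was 0.92 on the log2 scale, against 0.00 over all genes. In 8 members every fish with HCC was above every control and in 0 every fish was below, where 12.1% and 11.5% of all genes showed this. The SQLE identifier ENSDARG00000063319 was not tested, as it had at most 0.0332 CPM in any fish. The other, ENSDARG00000079946, is counted among the members that rose and those without overlap. It passed the count filter through the HCC group alone. Summed over the 20 identifiers of the synthesis enzymes, the level was 166 to 197 CPM in the controls and 917, 475, 193, 502 and 431 CPM in HepABC zebrafish with HCC (317E5, 317E6, 317E9, 317E10 and 317E11). Fish 317E9 lay within the controls and the other 4 were above them all.

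**Figure D1:**
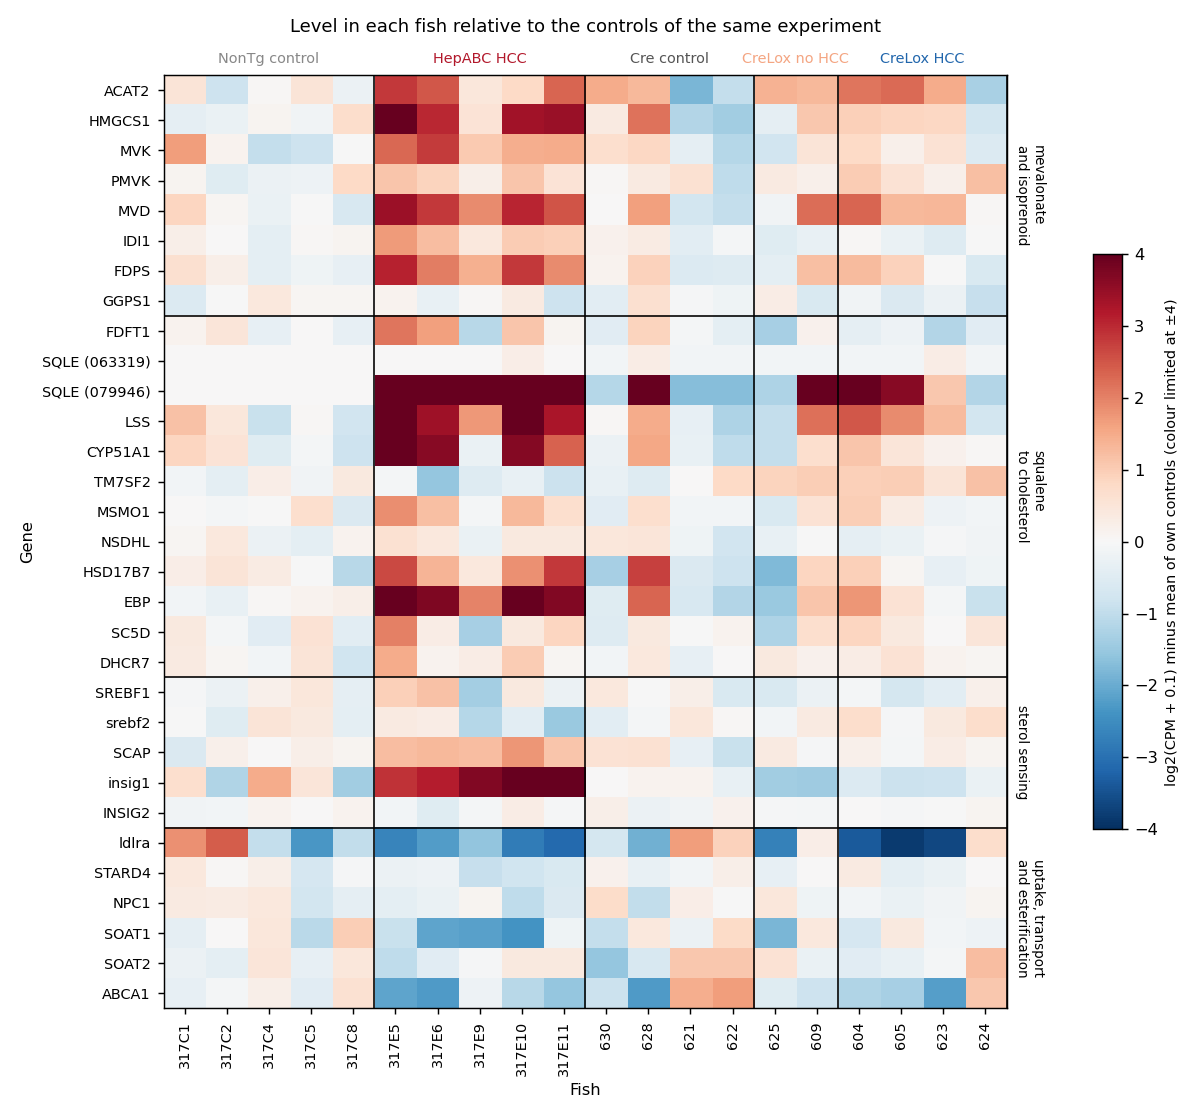
Level of each of the 31 genes (rows, by role) in each of the 20 fish (columns, by group) as log2(CPM + 0.1) minus the mean of the controls of the same experiment, with colour limited at ±4. The HepABC HCC columns are red over most synthesis genes and palest in fish 317E9, and in the CreLox experiment control fish 628 is red beside the other controls.

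The first steps of the pathway run from acetyl-CoA to the isoprenoids, and 6 of their 8 members rose in HepABC HCC, where 17.4% of all genes rose. Values of the NonTg controls are given in the order 317C1, 317C2, 317C4, 317C5, 317C8 and those of HepABC zebrafish with HCC in the order 317E5, 317E6, 317E9, 317E10, 317E11. HMGCS1 (ENSDARG00000103025), which condenses acetoacetyl-CoA with acetyl-CoA to HMG-CoA, had 5.93, 6.37, 8.31, 6.94 and 12.5 CPM in the controls and 219, 63.7, 11.4, 80.5 and 85.3 CPM in HCC. One HCC fish, 317E9, thus lay inside the range of the controls. The difference was 3.52 ± 0.62 (log2, SE, n = 5 against 5, edgeR adjusted p = 0.00164).

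The remaining mevalonate genes that rose were ACAT2, MVK, MVD, IDI1 and FDPS. MVD (ENSDARG00000099336), the decarboxylase that makes isopentenyl diphosphate, had 2.66, 1.52, 1.156, 1.397 and 0.884 CPM in the controls and 16.3, 10.8, 5.54, 12.6 and 8.58 CPM in HCC (log2 change 2.82 ± 0.37, SE, edgeR adjusted p = 0.000362). FDPS (ENSDARG00000040890), which joins isoprenoid units to farnesyl diphosphate, rose by 2.34 ± 0.35 from 6.07 ± 1.99 to 30.8 ± 14.5 CPM (SD, n = 5 each). IDI1 (ENSDARG00000019976), the isomerase before FDPS, had 22.6, 19.3, 14.5, 19.9 and 20.7 CPM in the controls and 63.1, 44.8, 25.5, 39.0 and 37.6 CPM in HCC. Its change of 1.11 ± 0.24 (SE, edgeR adjusted p = 0.00494) was smaller than those of MVD and FDPS, and the fish of the groups did not overlap in any of these 3 genes. ACAT2 (ENSDARG00000007127), which makes acetoacetyl-CoA, rose by 1.99 ± 0.47, and MVK (ENSDARG00000004130), mevalonate kinase, by 1.70 ± 0.58 (SE). The call of MVK was lost without any 1 of 8 fish, with an adjusted p of up to 0.108 over its alternatives. PMVK, which adds the next phosphate, had a log2 difference of 0.76 ± 0.30 (SE, edgeR adjusted p = 0.0741). It was called higher in HCC by DESeq2 (adjusted p = 0.0469), by voom (0.0482), with at least 10 counts in every library (0.0497) and with library size alone (0.00148), and by edgeR without control fish 317C8 (0.0211) or HCC fish 317E9 (0.0368). GGPS1, which makes geranylgeranyl diphosphate for protein prenylation rather than for sterols, had one of -0.10 ± 0.26 (SE, adjusted p = 0.804).

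From squalene to cholesterol, 6 of 11 tested members rose and 0 fell, where 17.4% of all genes rose and 16.2% fell. SQLE encodes squalene epoxidase, the enzyme that makes the first oxygenated sterol precursor and a control point of the later pathway. The SQLE identifier ENSDARG00000079946 had a count of 0 in all 5 NonTg controls, and 37.1, 9.64, 2.72, 22.1 and 9.97 CPM in HCC (edgeR adjusted p = 0.000761). It passed the count filter through the HCC group alone, so its p-value and its lack of overlap add no support. At a floor of 3 counts in the control library with the highest such floor, 0.158 CPM, its mean of 16.3 CPM in HCC was at least 103-fold higher, and the lowest HCC fish was at least 17.2-fold higher. These bounds cover counting error at most, and the reads carried no molecular identifiers. They leave out the spread between fish, and the same identifier ran from 0 to 7.43 CPM in the Cre controls. A fitted fold change of a gene at 0 in a whole group depends on the prior count and is no measure of its size.

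LSS (ENSDARG00000061274), lanosterol synthase, closes the sterol rings. It had 1.41, 0.823, 0.263, 0.599 and 0.295 CPM in the controls and 22.0, 7.02, 2.16, 10.5 and 6.32 CPM in HCC, without overlap, a change of 3.81 ± 0.66 (log2, SE, edgeR adjusted p = 0.00153). CYP51A1 (ENSDARG00000042641), lanosterol demethylase, had 8.44, 6.80, 3.31, 4.39 and 2.58 CPM in the controls and 103, 59.17, 3.89, 59.8 and 24.2 CPM in HCC (log2 change 3.29 ± 0.70, SE, edgeR adjusted p = 0.00468). Fish 317E9 again lay within the controls. EBP (ENSDARG00000046098), the isomerase that shifts the double bond of the sterol ring, had 0.647, 0.563, 0.736, 0.799 and 0.847 CPM in the controls and 20.4, 10.6, 3.08, 25.2 and 10.4 CPM in HCC. Its groups did not overlap and its change was 4.27 ± 0.51 (log2, SE, edgeR adjusted p = 0.000221).

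HSD17B7 (ENSDARG00000088140), the keto-reductase of the demethylation complex, rose by 2.01 ± 0.47 (log2, SE, edgeR adjusted p = 0.00787), and MSMO1 (ENSDARG00000055876), the methyl oxidase of the same complex, by 1.07 ± 0.35 (adjusted p = 0.0331). The call of MSMO1 was lost without any 1 of 7 fish (highest adjusted p 0.0796). The other 5 tested members of these steps were not called in the main test, and all but TM7SF2 were called higher with library size alone. FDFT1, squalene synthase, differed by 1.21 ± 0.55 (SE, edgeR adjusted p = 0.110), and without fish 317E9 it was called at 1.52 ± 0.42 (adjusted p = 0.0183). NSDHL, SC5D and DHCR7, which act late in the pathway, had log2 differences of 0.31, 0.75 and 0.65. TM7SF2 (ENSDARG00000032816), one of the sterol reductases, had the opposite sign, which turned to 0.27 with library size alone, a scaling that moved the median of all genes to 0.87. With limma voom and sample weights it was called lower in HCC (-0.75, adjusted p = 0.0483). It stood at 31.8, 26.3, 42.1, 31.1 and 45.3 CPM in the controls and 32.7, 11.7, 24.02, 28.2 and 19.1 CPM in HCC, a difference of -0.61 ± 0.28 (log2, SE, edgeR adjusted p = 0.110).

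**Figure D2:**
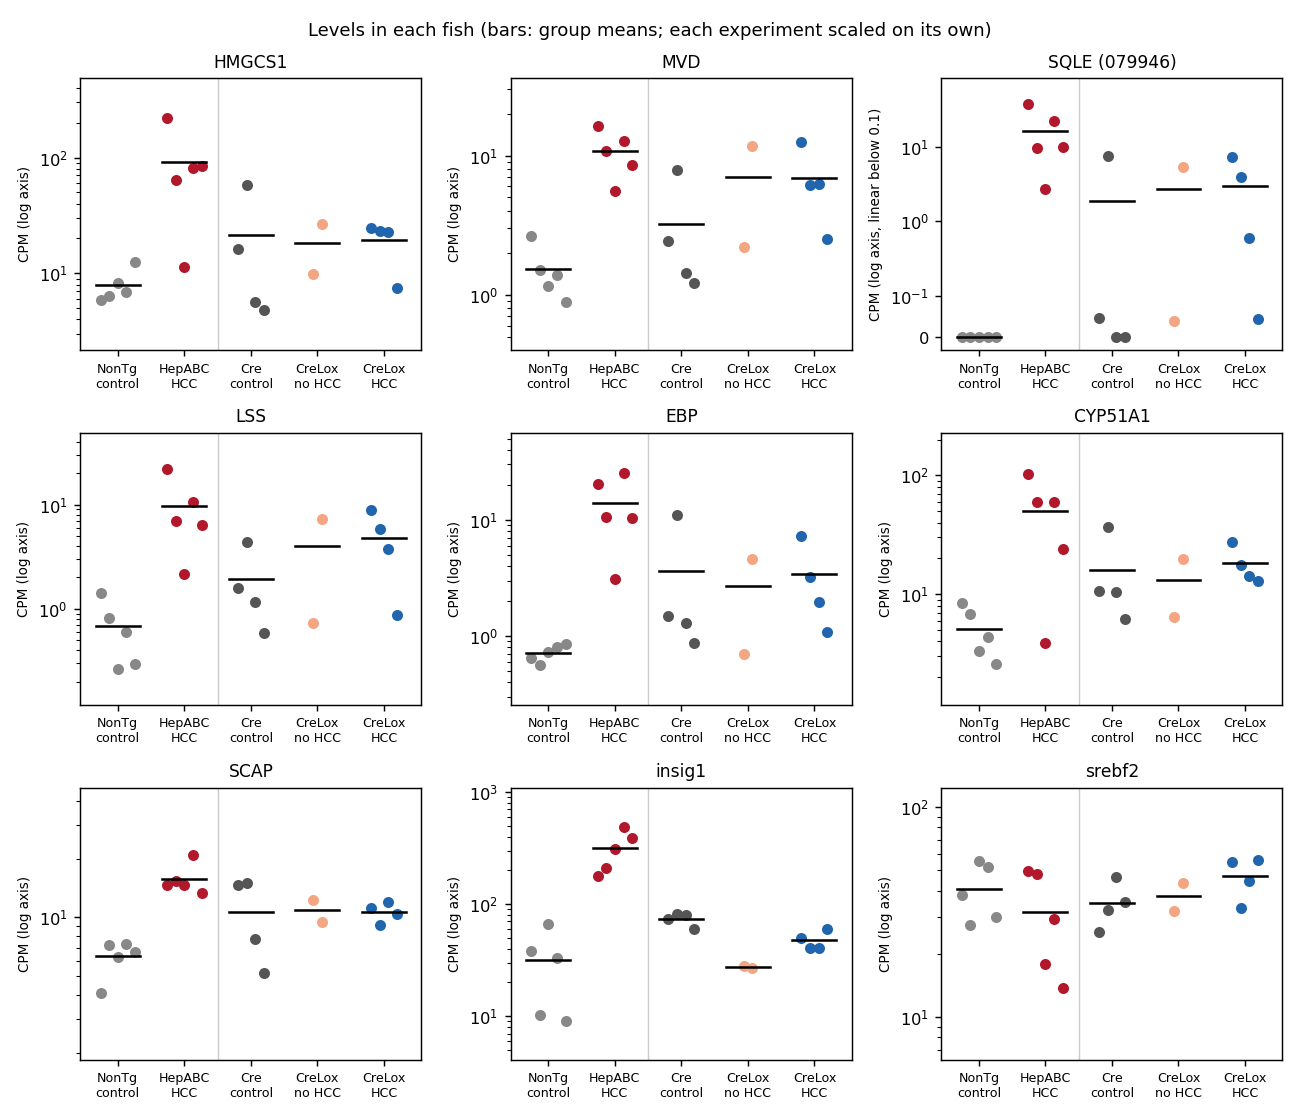
CPM in each fish (points) and group mean (bars) for 9 members over the 5 groups, on log axes (for SQLE linear below 0.1 so that 0 can be shown), each experiment scaled on its own. In the HepABC experiment the HCC points of MVD, SQLE, LSS, EBP, SCAP and insig1 lie above all 5 NonTg points, while in the CreLox experiment the groups overlap in all of these except insig1 of the 2 fish without HCC.

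Among the 5 sterol-sensing members, SCAP and insig1 rose in HepABC HCC and the genes of the transcription factors did not pass the test. Over all genes 17.4% rose. SCAP (ENSDARG00000018096), the escort of SREBP, had 4.07, 7.19, 6.26, 7.29 and 6.67 CPM in the controls and 14.8, 15.4, 14.8, 21.0 and 13.4 CPM in HCC. The HCC values were close together and all above the controls (log2 change 1.33 ± 0.21, SE, edgeR adjusted p = 0.00101). The gene insig1 (ENSDARG00000010658) encodes the protein that retains SCAP and, in mammals, is itself switched on by SREBP. It had 38.2, 10.3, 66.4, 33.2 and 8.99 CPM in the controls and 178, 212, 312, 492 and 387 CPM in HCC, a change of 3.33 ± 0.57 (log2, SE, edgeR adjusted p = 0.00144). Its order among the HCC fish was not that of the enzymes, as 317E9 was the third highest for insig1 and lowest in 16 of 19 synthesis members.

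The SREBP genes stood differently from their escort. The gene srebf2 (ENSDARG00000063438), whose product in mammals acts mostly on cholesterol genes, had 38.2, 27.6, 55.6, 51.6 and 29.8 CPM in the controls and 49.8, 48.0, 17.8, 29.3 and 13.8 CPM in HCC (log2 difference -0.35 ± 0.37, SE, edgeR adjusted p = 0.497). SREBF1 (ENSDARG00000067607), which in mammals acts mostly on fatty acid genes, had 15.0, 13.2, 17.7, 21.2 and 11.9 CPM in the controls and 30.2, 35.1, 5.94, 20.5 and 13.0 CPM in HCC (0.41 ± 0.40, SE, adjusted p = 0.468). INSIG2 (ENSDARG00000113367) had 8.29, 8.49, 10.15, 9.28 and 10.1 CPM in the controls and 8.58, 6.51, 8.65, 11.3 and 8.95 CPM in HCC (-0.07 ± 0.19, SE, adjusted p = 0.790). The groups overlapped in all 3 genes. With library size alone as the scaling, SREBF1 (1.33, edgeR adjusted p = 0.0258) and INSIG2 (0.807, 0.0063) were called higher in HCC. That scaling moved the median of all genes to 0.87.

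Of the 6 members for uptake, transport and esterification, 3 fell in HepABC HCC and 0 rose, where 16.2% of all genes fell and 17.4% rose. The gene ldlra (ENSDARG00000029476), an LDL receptor, had 1493, 2239, 219, 84.5 and 213 CPM in the controls and 66.7, 88.9, 141, 60.6 and 48.4 CPM in HCC. Control fish 317C5 lay within the HCC range, and the change was -3.39 ± 0.84 (log2, SE, edgeR adjusted p = 0.0103). With limma voom and sample weights it was not called (adjusted p = 0.0692). ABCA1 (ENSDARG00000074635), the exporter that loads cholesterol onto HDL, changed by -1.29 ± 0.40 from 403 ± 125 to 164 ± 106 CPM (SD, n = 5 each, edgeR adjusted p = 0.0268). SOAT1 (ENSDARG00000062297), which esterifies cholesterol, changed by -1.44 ± 0.50 (adjusted p = 0.0464). The ABCA1 call was lost without any 1 of 5 fish and the SOAT1 call without any 1 of 7, and both were lost with library size alone as the scaling. The SOAT1 call was also lost with voom (adjusted p = 0.0533) and by edgeR with all genes of at least 1 count (0.0582). STARD4, a sterol carrier, NPC1, which lets cholesterol out of lysosomes, and SOAT2, the other esterifying enzyme, had log2 differences of -0.57, -0.45 and -0.11 and were not called, except STARD4 without control fish 317C5 (-0.72, edgeR adjusted p = 0.0299).

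In the CreLox experiment no member passed the test. Of 30 tested, 0 were called in CreLox zebrafish with HCC against Cre controls by edgeR, where 4.20% of all 16837 genes tested were called. At an unadjusted p under 0.05 there were 2, where 3952 of the 16837 genes passed. DESeq2 called 2, where it called 12.7% of all genes. The median change of the members was -0.02 on the log2 scale against -0.05 over all genes, with 15 positive and 15 negative. In 0 members was every HCC fish above or below every control, where 7.52% of all genes were above and 6.50% below. In CreLox zebrafish without HCC, edgeR called 0 members against the same controls, where 0.315% of genes were called. The members' median was -0.14, and 2 had an unadjusted p under 0.05, where 1712 of the 16837 genes did. DESeq2 called 1, where it called 2.21% of genes. Between CreLox zebrafish with and without HCC edgeR also called 0, where 0.00594% of genes were called. Here 1 member had an unadjusted p under 0.05, where 514 of the genes did. DESeq2 called 0, where it called 0.0956% of genes. These results are for bulk liver. In its single-cell data the paper lists FDPS, HMGCS1 and MSMO1 as raised in a hepatocyte cluster mostly from a CreLox liver with HCC. The other members reported here are not in that list, which compares cell clusters rather than livers with and without HCC.

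**Figure D3:**
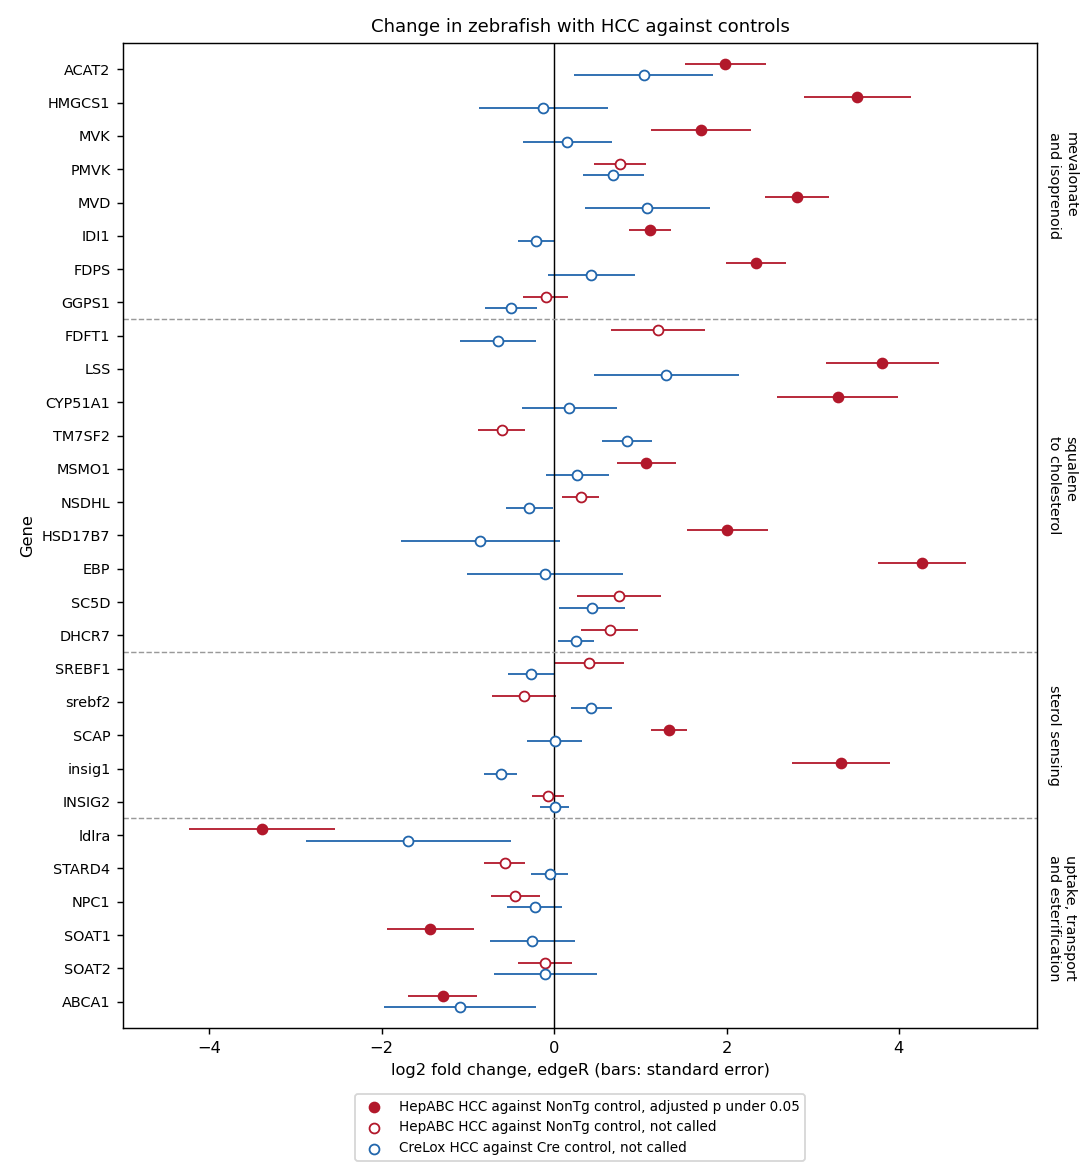
log2 fold change (points) and its SE derived from the F statistic (bars) of 29 members, filled where the adjusted p is under 0.05. Red is HepABC zebrafish with HCC against NonTg controls, and blue is CreLox zebrafish with HCC against Cre controls. SQLE is left out because a group had no counts. The red points are filled for 16 members, while all 29 blue points are open and their bars are wide for genes such as ldlra and HSD17B7.

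The spread of the synthesis genes within groups was read from the ratio of the highest to the lowest fish, over members with a count in every fish. Its median was 3.06 in the 4 Cre controls (over 4 in 8 of 18 members) and 2.25 in CreLox HCC (over 4 in 5 of 19). In the HepABC experiment it was 2.25 in the NonTg controls (over 4 in 2 of 18) and highest in HCC, at 3.85 (over 4 in 9 of 19). Control fish 628 was the highest of the 4 in 16 of 19 synthesis members. SQLE (ENSDARG00000079946) had 0.0461, 7.43, 0 and 0 CPM in Cre controls 630, 628, 621 and 622, the order used from here on. The level of fish 628 was above the 7.298 CPM of fish 604, the highest CreLox fish with HCC. CreLox zebrafish 604, 605, 623 and 624 had 7.298, 3.92, 0.588 and 0.0434 CPM, and the fish without HCC, 625 and 609, had 0.0386 and 5.38 CPM. SQLE was thus near 0 in some fish and above 3 CPM in others within each of the 3 CreLox groups.

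Other enzymes varied in the same manner. HMGCS1 had 16.3, 58.2, 5.63 and 4.81 CPM in the controls, 9.89 and 26.9 CPM without HCC, and 24.7, 23.0, 22.7 and 7.55 CPM with HCC (-0.13 ± 0.75, SE, adjusted p = 0.938). EBP had 1.47, 10.9, 1.30 and 0.874 CPM in the controls, 0.695 and 4.65 CPM without HCC, and 7.33, 3.20, 1.98 and 1.09 CPM with HCC (-0.11 ± 0.91, SE, adjusted p = 0.957). CYP51A1 had 10.7, 36.8, 10.4 and 6.16 CPM in the controls, 6.49 and 19.96 CPM without HCC, and 27.6, 17.7, 14.2 and 13.0 CPM with HCC (0.18 ± 0.56, SE, adjusted p = 0.871). In each of these 3 genes fish 628 was the highest control and fish 609 was above fish 625. The summed hepatocyte markers were 141300 and 156500 CPM in Cre controls 630 and 628, 261600 and 244900 CPM in 621 and 622, and 122600 to 167900 CPM in the 6 CreLox fish, and their part in the levels of these genes was not tested. Without fish 628 the median change of the members in CreLox HCC was 0.41 against -0.03 over all genes, and again 0 were called.

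The fish of the other CreLox groups also differed in these genes. Fish 604 was the highest of the CreLox zebrafish with HCC in 13 of 19 synthesis members and fish 624 the lowest in 11, and fish 609 was above fish 625 in 15 of 19. IDI1 was among the steadier enzymes, with 33.3, 37.4, 21.8 and 27.9 CPM in the Cre controls, 21.1 and 24.04 CPM in the fish without HCC and 30.3, 24.6, 20.6 and 28.9 CPM in those with HCC (log2 difference -0.21 ± 0.21 with HCC, SE, edgeR adjusted p = 0.585).

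TM7SF2 and insig1 came nearest to a call in the CreLox comparisons. TM7SF2 had 17.3, 14.9, 21.5 and 37.2 CPM in the Cre controls, 40.0 and 42.2 CPM without HCC, and 41.8, 42.5, 30.7 and 48.7 CPM with HCC. The difference with HCC was 0.85 ± 0.29 (log2, SE, edgeR adjusted p = 0.116), and it was called by DESeq2 (adjusted p = 0.0494), with library size alone (0.0259) and without control fish 622 (1.20, adjusted p = 0.0312). The gene insig1 had 73.2, 81.1, 79.8 and 59.5 CPM in the Cre controls, 27.8 and 27.2 CPM without HCC, and 49.6, 40.3, 40.6 and 60.6 CPM with HCC. Both fish without HCC lay below all 4 controls, a split whose share over all genes was not counted. Their difference from the controls was -1.42 ± 0.25 (SE, edgeR adjusted p = 0.0561). This difference was called by DESeq2 (adjusted p = 2.05e-06) and by edgeR without HCC fish 624 (0.0340). With HCC the difference was -0.62 ± 0.19 (SE, edgeR adjusted p = 0.0918), called by DESeq2 only (0.0205). These comparisons share the Cre controls.

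For the other sensing members, SCAP had 14.7, 15.0, 7.75 and 5.15 CPM in the Cre controls, 12.4 and 9.42 CPM without HCC, and 11.2, 9.10, 12.0 and 10.4 CPM with HCC, and srebf2 had 25.5, 32.3, 46.3 and 35.3 CPM, 31.9 and 43.4 CPM, and 54.9, 32.9, 44.5 and 55.9 CPM in the same order. SREBF1 had 61.3, 45.7, 54.1 and 29.9 CPM in the Cre controls, 30.4 and 38.8 CPM without HCC, and 43.6, 28.4, 34.3 and 52.8 CPM with HCC. INSIG2 stood between 6.17 and 8.57 CPM in all 10 CreLox fish. The groups overlapped in these genes. SREBF1 was higher in the 4 Cre controls than in any NonTg control, whose highest value was 21.2 CPM, but these controls differ in age, driver transgene, ethanol and removal of duplicate reads and were scaled separately, so the sources of the gap cannot be told apart.

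In CreLox zebrafish ldlra depended on 1 fish. It had 397, 169, 2048 and 1223 CPM in the Cre controls, 98.6 and 763 CPM without HCC, and 61.6, 44.7, 51.2 and 1031 CPM with HCC. Fish 624, the last of these, was within the range of the controls, and the other HCC fish lay below all 4 controls. The difference was -1.69 ± 1.19 (log2, SE, edgeR adjusted p = 0.411), and without fish 624 it was -4.19 ± 1.00 (adjusted p = 0.0428). Fish 624 was also the lowest HCC fish for SQLE and HMGCS1.

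The changes in the 2 models were then compared in a fit of all 20 fish, as the HepABC HCC change minus the CreLox HCC change. Of the 30 members, 7 had a more positive and 1 a more negative change in HepABC zebrafish, or 26.7% called, where 11.3% of all 18645 genes tested were called, 6.01% more positive and 5.33% more negative. The lowest adjusted p was that of insig1, at 3.97 ± 0.64 (log2 difference of changes, SE, edgeR adjusted p = 0.00161). IDI1 differed by 1.33 ± 0.32 (adjusted p = 0.0152). These 2 calls held in each of the 26 alternatives fitted, while the other 6 were lost in some. EBP differed by 4.38 ± 1.09 (adjusted p = 0.0163), HMGCS1 by 3.64 ± 1.01 (0.0278), SCAP by 1.34 ± 0.38 (0.0294), and CYP51A1 by 3.11 ± 0.95 (0.0408). SQLE (ENSDARG00000079946) was called as well (adjusted p = 0.0447), with 0 counts in the NonTg controls and a spread from 0 to 7.43 CPM in the Cre controls. TM7SF2 differed by -1.44 ± 0.41 (0.0307). The calls of SQLE and CYP51A1 were lost in most of the fits with 1 fish left out. With voom the calls of SQLE, CYP51A1, EBP, HMGCS1 and SCAP were lost. Without control fish 628 only 2 of the 30 members were called, where 6.54% of all genes were. Without HepABC fish 317E9 10 were called, where 12.8% of all genes were. The experiments differ in age, in how and when the transgene is switched on, in treatment, in the genotype of the controls and in removal of duplicate reads. The sources of these differences thus cannot be told apart.

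Related genes outside the set were then read beside the members. Of 41 tested identifiers of other sterol genes (receptors, lipoprotein assembly, bile acid synthesis, sterol ester hydrolysis and regulators), 5 rose and 18 fell in HepABC HCC (median -0.59), where 17.4% of all genes rose and 16.2% fell. The LDL receptor paralog ldlrb (ENSDARG00000026759) rose where ldlra fell. It had 0.190, 0.260, 0.421, 0.449 and 0.0737 CPM in the NonTg controls and 12.0, 2.33, 1.93, 3.75 and 2.90 CPM in HCC, without overlap (log2 change 4.06 ± 0.65, SE, edgeR adjusted p = 0.00104). VLDLR, the VLDL receptor, rose by 2.66 ± 0.66 (adjusted p = 0.00978).

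The second ABCA1 gene, abca1b (ENSDARG00000079009), rose in both models while the member ABCA1 did not. It had 3.32, 3.05, 1.78 and 3.74 CPM in the Cre controls, 14.5 and 27.9 CPM without HCC, and 31.6, 44.5, 55.0 and 26.2 CPM with HCC (log2 change with HCC 3.73 ± 0.35, SE, edgeR adjusted p = 0.00142). All 6 CreLox fish lay above all 4 controls, a split whose share over all genes was not counted. For the fish with HCC alone, 7.52% of all genes had every fish above every control. In the HepABC experiment abca1b had 2.13, 4.16, 24.7, 13.0 and 3.76 CPM in the controls and 98.5, 61.1, 39.7, 23.9 and 63.7 CPM in HCC (2.59 ± 0.66, adjusted p = 0.0114), where fish 317E10 fell below control 317C4. In the CreLox experiment ABCA1 had 107, 40.7, 531 and 621 CPM in the controls and 84.4, 76.8, 42.2 and 408 CPM with HCC (-1.09 ± 0.88, SE, adjusted p = 0.477).

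**Figure D4:**
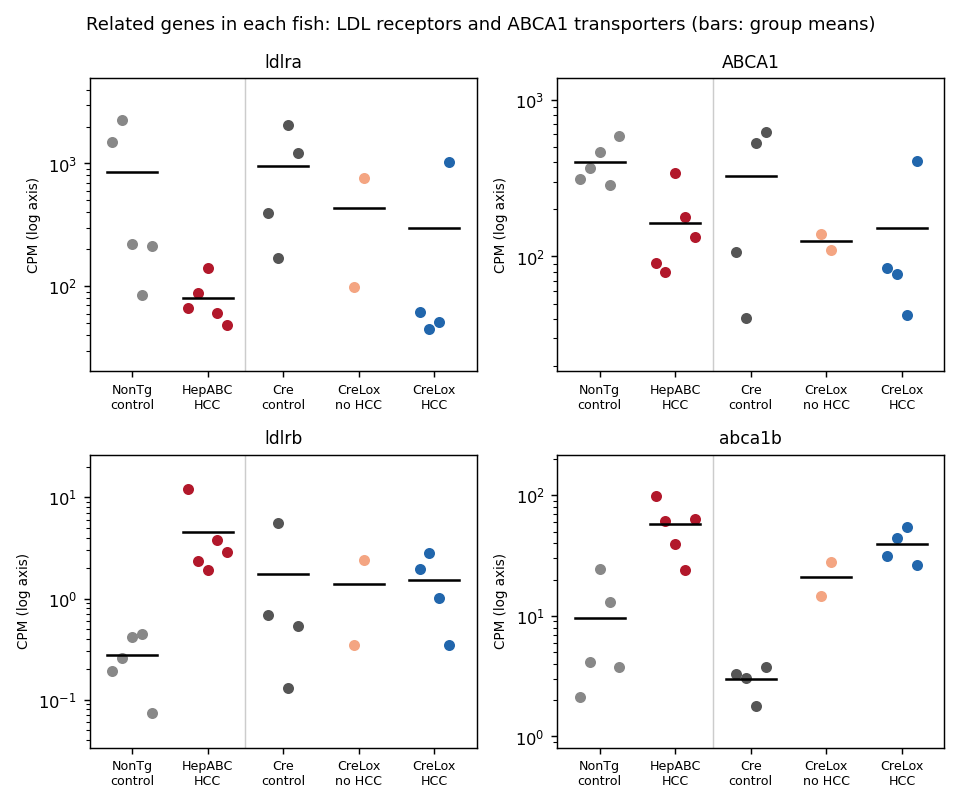
CPM in each fish (points) and group mean (bars), on log axes, for 2 pairs of related genes: ldlra above ldlrb and ABCA1 above abca1b. In HepABC HCC ldlra and ABCA1 fell while ldlrb and abca1b rose (the ABCA1 call was lost with library size alone). In all 6 CreLox fish abca1b was also above all 4 Cre controls.

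Among the other sterol genes with an average log2 CPM of at least 1, those with the largest fitted fall in HepABC HCC were APOB and 2 identifiers of NCEH1, which hydrolyses cholesterol esters. NCEH1 ENSDARG00000020427 had 5.25, 1.99, 1.52, 1.15 and 17.98 CPM in the controls and 0.177, 0.0364, 0, 0 and 0.0456 CPM in HCC, or 9, 2, 0, 0 and 2 counts (edgeR adjusted p = 0.00136). Its groups did not overlap, and at so few counts no fold is given. It passed the count filter through the controls alone, so its p-value and its rank add no support. APOB (ENSDARG00000042780), the structural protein of LDL, changed by -2.75 ± 0.35 on the log2 scale (SE, edgeR adjusted p = 0.000301), and NCEH1 ENSDARG00000115549 by -2.44 ± 0.44 (0.00193). APOB is secreted by hepatocytes, whose markers fell in the same fish, and their part in its fall was not tested. Of 14 genes of the isoprenoid branch, which leads to ubiquinone, dolichol and prenylated proteins, 6 rose and 1 fell, or 50.0% called. Over all genes 33.7% were called, 17.4% up and 16.2% down. PDSS1, which builds the ubiquinone side chain, rose by 1.66 ± 0.26 (edgeR adjusted p = 0.000912), RABGGTB and RABGGTA, the subunits of the enzyme that prenylates Rab proteins, by 1.33 ± 0.30 and 1.099 ± 0.204, and DHDDS, of dolichol synthesis, changed by -0.80 ± 0.21 (SE, adjusted p = 0.0142). Of 15 fatty acid genes that SREBP controls in mammals, 0 rose and 4 fell in HepABC HCC, or 26.7% called, where 33.7% of all genes were called. They included thrsp at -4.65 ± 1.05 (adjusted p = 0.00621), ACACB, an acetyl-CoA carboxylase, at -1.81 ± 0.30 (0.00120), and PNPLA3 at -0.90 ± 0.27 (0.0232).

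In CreLox zebrafish with HCC, 2 of 42 other sterol genes rose and 1 fell, or 7.14% called, where 4.20% of all genes were called. They included abca1b and, falling, NCEH1 (ENSDARG00000115549; log2 change -1.21 ± 0.20, SE, edgeR adjusted p = 0.0137). DHDDS changed by -0.83 ± 0.18 (adjusted p = 0.0362), the only called gene of 14 in the isoprenoid branch, and ACSL3, a fatty acyl-CoA synthetase, by -1.42 ± 0.31 (0.0316), the only called gene of 15 in the fatty acid list.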

How the data were processed

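The authors deposited unnormalised read counts for 32520 Ensembl genes in 1 table per experiment. Per the labels and the methods, TruSeq stranded mRNA libraries were sequenced as paired reads, adapters were trimmed with cutadapt, and reads were aligned with STAR 2.6.1b to GRCz11 and counted with featureCounts 1.6.3. Optical duplicates were removed from the CreLox reads only. The strand setting of the counting is not given in the sources used here, so overlapping genes on opposite strands may share reads. How reads that match both SQLE identifiers were treated is not given either.

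From the deposited counts, groups were compared in R 4.3.3 with edgeR 4.0.16 (TMM, filterByExpr by group, glmQLFit and glmQLFTest, Benjamini-Hochberg adjustment over all genes tested, threshold 0.05), fitted to the 10 fish of an experiment or, for the difference of changes, to all 20. No library pair was identical. Steps were tested on simulated data. The members and lists were chosen with earlier results of these data known. Some genes of these lists are not reported here, and no count includes them. All other members are accounted for. Values in every fish are given for members called in the CreLox HCC comparison or the difference of changes, for sterol-sensing members and for others the results turn on, and of each other list at most 3 called genes per direction with the largest change and an average log2 CPM of at least 1. Alternatives were DESeq2 1.42.0, its size factors in edgeR, library size alone, other count filters (at least 1 count in all, or at least 10 in every library), limma 3.58.1 voom with sample weights, the compared groups alone, and each fish left out. Calls of genes outside the set were not read in these alternatives. A planned search for promoter motifs was not run, as no promoter sequences were used here. Symbols are those of the reference gene table, and levels are not compared between genes, as transcript lengths were not used.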

Additional observations from a re-analysis of the deposited data

Results flagged for a closer look

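Each member was tested in each group of 4 or 5 fish for a fish far from the rest. Of 119 such tests 5 gave a flag. Chance alone flags about 1 test in 20, so the flags were no more than chance would give. In Cre control fish 628, SQLE (ENSDARG00000079946) was at 7.428 CPM where the next control had 0.04606 CPM. CreLox HCC fish 624 was far from its group in a pair of genes, with HMGCS1 at 7.548 CPM below the next fish at 22.69 CPM and ldlra at 1031 CPM above the next at 61.62 CPM. In HepABC HCC fish 317E9, NSDHL was at 17.05 CPM below the next fish at 26.97 CPM. In NonTg control fish 317C1, SCAP was at 4.069 CPM below the next control at 6.255 CPM, and this fish also had the highest summed exocrine pancreas markers, whose part was not tested.

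The change with HCC differed between the HepABC and CreLox models in 8 members, by the test of the difference itself. By the same test 11.3% of all genes were called. Of the 8 calls, only those of insig1 and IDI1 held in every alternative fitted. In log2 units the HepABC change exceeded the CreLox change by 3.973 for insig1, 4.38 for EBP, 3.644 for HMGCS1, 3.111 for CYP51A1, 1.343 for SCAP and 1.328 for IDI1. For SQLE (ENSDARG00000079946) the fitted difference was 11.247, a value that depends on the prior count because the NonTg controls had 0 counts. TM7SF2 went the other way, at -1.442.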

How the results depend on the processing

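In HepABC HCC, 12 of the 17 member calls held in every alternative fitted, and MVK, MSMO1, SOAT1, ABCA1 and ldlra lost theirs in some. Each was fitted in 15 or 16 alternatives. SQLE (ENSDARG00000079946), at 0 in the controls, could not pass the filter of at least 10 counts in every library. The count of called members was 15 to 18 with DESeq2, its size factors, other count filters or voom, where 20.6% to 38.8% of all genes were called. It was 13 to 18 when 1 fish was left out, where 27.7% to 35.2% of all genes were called. The count was lowest without 317C4, 317E5 or 317E6 and highest without 317E9. Library size alone moved the median of all genes from 0.00 to 0.87 and gave 23 members up and 1 down, against 14 up and 3 down. With it 55.5% of all genes were called, with 7955 of 15864 up. The members' median was then 1.82, and GGPS1 (0.776), SOAT2 (0.791) and INSIG2 (0.807) turned positive and were called. SREBF1, PMVK, FDFT1, NSDHL, SC5D and DHCR7, positive but uncalled in the main test, were called too. The other uncalled members with a negative difference (TM7SF2, srebf2, STARD4 and NPC1) turned positive too and were not called. In the CreLox HCC comparison, DESeq2 called 2 members, TM7SF2 up and insig1 down, where it called 12.7% of all genes. Library size alone called 1, TM7SF2, where 6.19% of all genes were called. Leaving out 1 fish gave 0 to 1 (ldlra without fish 624, TM7SF2 without fish 622). For CreLox zebrafish without HCC, DESeq2 called 1, insig1, where it called 2.21% of all genes. Leaving out 1 fish there gave 0 to 1 (insig1 without fish 624). Between CreLox zebrafish with and without HCC every alternative gave 0. The difference between the models was called for 3 members with voom, where 10.9% of all genes were called. It was called for 2 to 10 when 1 fish was left out, and the cause was not tested. The count was lowest without Cre control 628 (6.54% of all genes called) and highest without 317E9 (12.8%). A lone CreLox fish without HCC was assumed to vary like the other groups. No paired analysis was possible because no fish is shared between groups and the replicate numbers only name fish.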
